A study of Mus musculus with 5 samples.

Results

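The 10 genes followed here are commonly read as the epithelial or mesenchymal state of a tumor. They were measured in 5 RNA-seq libraries of Lewis lung carcinoma (LLC), a mouse lung tumor cell line: CDH1, EPCAM, VIM, CDH2, FN1, ZEB1, ZEB2, SNAI1, SNAI2 and TWIST1. They were chosen by name. All 10 of 10 were found among the 13979 gene symbols that the 3 tables used here share. The groups were Control, BMN (BMN673, a PARP inhibitor, alone), PAZA (a polymer that carries the DNA methyltransferase inhibitor azacytidine, alone), and BMN/PAZA at a low and at a high dose, each with 1 library. In the study's methods the RNA came from tumors collected the day after dosing ended. The RNA-seq methods name no tumor model or strain. Elsewhere the paper describes LLC tumors under the skin of C57BL/6 mice, among other models. The labels instead give cultured LLC cells with 72 h of treatment, and attach the words low dose and high dose to BMN. In the paper the doses of BMN and azacytidine in BMN/PAZA change together. All groups share the same cell line, and no group has a replicate, so differences describe these libraries and no test was run.

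Epithelial cells are held to each other by E-cadherin, the product of CDH1, at adherens junctions, and many of them also carry the adhesion molecule EPCAM. In an epithelial to mesenchymal transition, transcription factors of the ZEB, SNAI and TWIST families repress CDH1 and other junction genes, and cells gain the intermediate filament vimentin (VIM), N-cadherin (CDH2) and the matrix protein fibronectin (FN1). Tumors also hold fibroblasts, vessels and leukocytes, which carry vimentin, fibronectin and ZEB2 of their own, and tumors under the skin may include keratinocytes, which carry CDH1. In bulk RNA, fewer cells of a type and less RNA per cell cannot be told apart.

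The ZEB and SNAI factors bind E-boxes, of which the letters CACCTG and, on the other strand, CAGGTG are the usual form. The 250 bases before the transcription start were read from RefSeq (GRCm38.p6) for the 5 members with a printable entry, EPCAM, SNAI1, VIM, TWIST1 and ZEB2. Of these, EPCAM held 2 matches and SNAI1 held 1, while VIM, TWIST1 and the 4 listed starts of ZEB2 held 0. Among 32851 promoter windows of the same length, 17.2% held at least 1 match and 2.06% held 2 or more. The windows of EPCAM, the member that varied most between libraries, and of SNAI1, a repressor gene that itself carries the motif, are shown with the matches in capitals. A match is a description of letters, and binding was not measured.
EPCAM: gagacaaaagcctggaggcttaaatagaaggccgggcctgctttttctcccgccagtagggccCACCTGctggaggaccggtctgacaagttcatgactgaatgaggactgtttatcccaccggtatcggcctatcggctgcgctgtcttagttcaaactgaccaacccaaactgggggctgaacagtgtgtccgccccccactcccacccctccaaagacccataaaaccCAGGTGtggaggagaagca
SNAI1: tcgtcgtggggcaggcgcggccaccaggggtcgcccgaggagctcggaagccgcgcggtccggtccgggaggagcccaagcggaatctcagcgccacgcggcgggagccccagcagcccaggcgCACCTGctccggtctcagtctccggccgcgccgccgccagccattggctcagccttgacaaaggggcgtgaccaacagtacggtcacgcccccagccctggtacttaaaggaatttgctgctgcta
The EPCAM window is chr17:87635729-87635978 on the plus strand, and its matches start at bases -187 and -19, counted from the transcription start. The SNAI1 window is chr2:167537945-167538194 on the plus strand, with its match at base -126.

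Levels are the deposited values, read as FPKM (fragments scaled to transcript length and library size), after each column was scaled to the same sum of 1000000 over the shared symbols. Because the tables were normalized separately, this scaling is what allows libraries of different tables to be set side by side, and 3 genes of ribosomal or other noncoding RNA, MT-RNR2, RN7SK and MT-RNR1, take 29.4% to 38.1% of the sums. The low values move in steps, since a library contains whole fragments. From those steps, chosen for use after seeing the data, the libraries hold an estimated 6.80 M fragments (M, 1000000) in Control, 8.67 M in BMN, 6.62 M in PAZA, 6.16 M in low-dose BMN/PAZA and 6.24 M in high-dose BMN/PAZA. The steps and the transcript length give the approximate number of fragments behind a level. Ratio intervals given with these numbers are 95% exact (Clopper-Pearson) intervals, cover counting error only and leave out the spread between tumors. VIM and FN1 rest on 17365 or more estimated fragments in every library, and SNAI1, CDH2 and EPCAM on 30 or fewer. A level of a few units need not mean little transcript, since GAPDH, a gene that all cells use, was at 1.84 to 4.67. Comparisons of levels between different genes carry this limit.

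**Figure D1:**
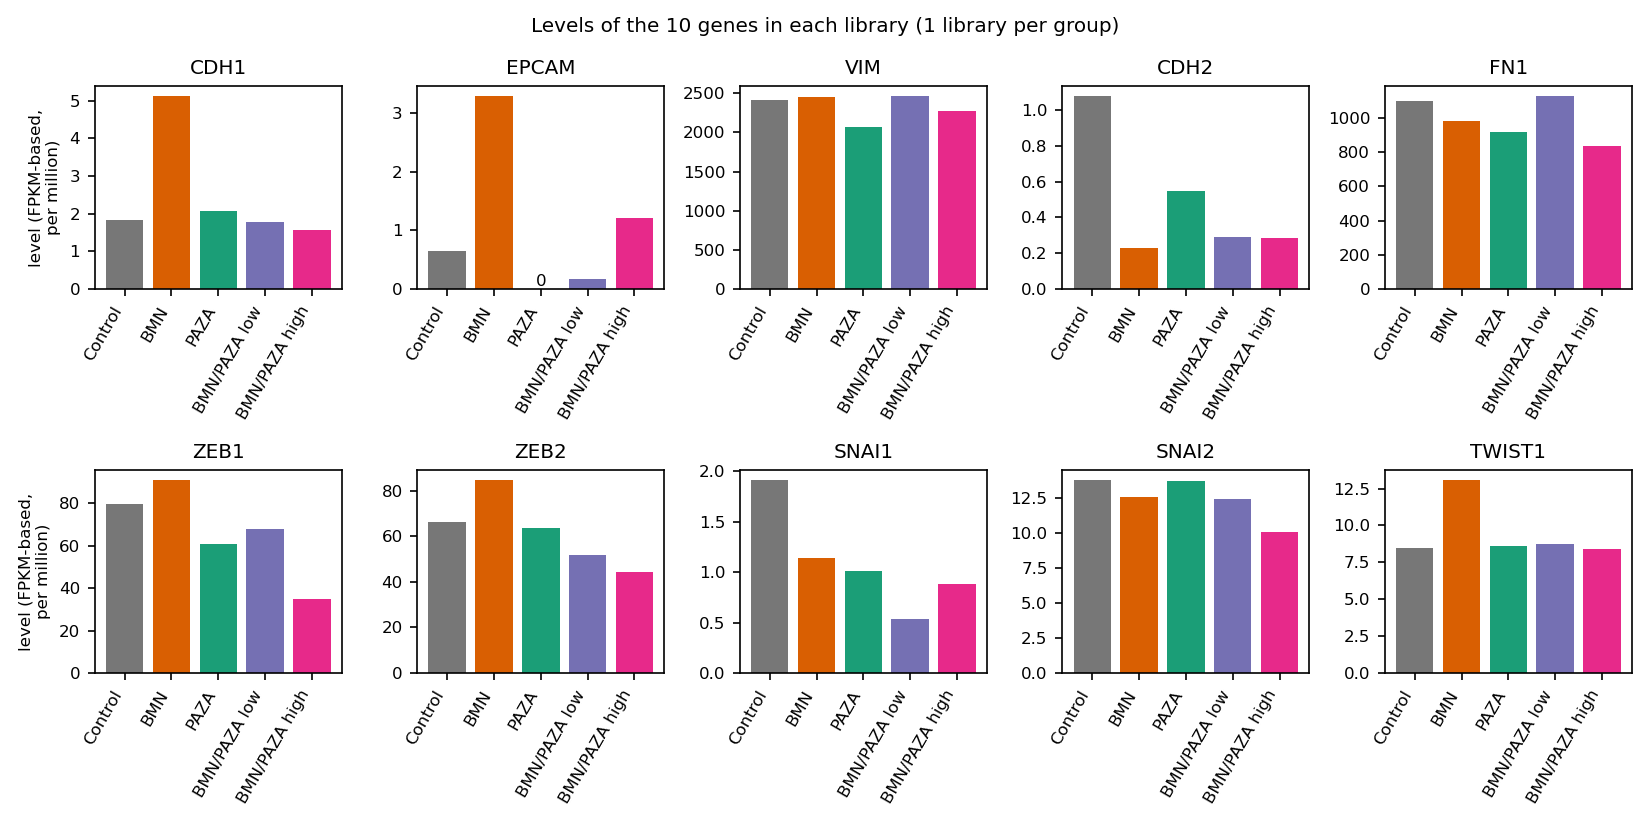
Levels of the 10 genes in the 5 libraries, with 1 bar per library and a linear axis from 0 that differs between panels (units: FPKM-based, scaled to a sum of 1000000). CDH1 and EPCAM are highest in BMN at 5.14 and 3.30, CDH2 and SNAI1 are highest in Control at 1.08 and 1.92, and ZEB1 is lowest in high-dose BMN/PAZA at 35.0.

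CDH1, on chromosome 8 from 106603350 to 106670247 (GRCm38.p6), encodes E-cadherin. Its level was 1.83 in Control, 5.14 in BMN, 2.08 in PAZA, 1.78 in low-dose BMN/PAZA and 1.57 in high-dose BMN/PAZA. BMN stood alone above the other 4 libraries, which lay within 1.57 to 2.08. About 30 fragments stood behind the Control level and about 103 behind the BMN level, and the ratio of BMN to Control was 2.80 (interval 1.87 to 4.41). Against BMN, CDH1 was 2.89-fold lower in low-dose BMN/PAZA (1.92 to 4.63) and 3.27-fold lower in high-dose BMN/PAZA (2.14 to 5.40). For the other 4 libraries among themselves, every counting interval of the pairs compared included a ratio of 1.

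EPCAM, on chromosome 17 from 87635979 to 87651127, encodes an epithelial adhesion molecule. Its level was 0.642 in Control, 3.30 in BMN and 1.21 in high-dose BMN/PAZA, it was 0.165 in low-dose BMN/PAZA, and it was listed at 0 in PAZA. These levels rest on about 5, 30, 9 and 1 fragments in the 4 libraries with a value. BMN was again the highest library, 5.13-fold above Control with an interval of 1.90 to 16.3. Low-dose BMN/PAZA was 19.9-fold below BMN, and its single fragment leaves an interval of 3.98 to 976. High-dose BMN/PAZA was 2.72-fold below BMN (1.25 to 6.48). The differences of PAZA and of both combinations from Control were not detectable at this depth.

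On the log2(level + 1) scale used for all comparisons, which understates changes of low genes, CDH1 differed from Control by 1.11 in BMN and EPCAM by 1.39. These were 2 of the 10 genes at least 2-fold higher in BMN, and 0 were at least 2-fold lower. Over all 13704 symbols with a value in either library, 4.66% were at least 2-fold higher and 2.25% at least 2-fold lower. The median of all symbols was 0.09 and the median of the 10 genes 0.11. In low-dose BMN/PAZA against BMN, CDH1 (-1.14) and EPCAM (-1.88) were the 2 genes past 2-fold, both lower, with 0 higher, where 3.22% of all symbols were higher and 5.86% lower. In high-dose BMN/PAZA against BMN, CDH1 (-1.26) and ZEB1 (-1.35) were lower and 0 higher, where 2.33% of all symbols were higher and 6.89% lower. EPCAM (-0.96) and ZEB2 (-0.93) lay close to the 2-fold line there. The medians of all symbols in these 2 comparisons were -0.14 and -0.27, and relative to them CDH1 differed by -1.01 and -0.99.

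The BMN library also held more of the keratinocyte markers and of some nonepithelial cell markers. Of 12 epidermal keratinocyte markers, 9 were among the shared symbols, and their summed level was 90.7 in Control, 281 in BMN, 12.9 in PAZA, 3.52 in low-dose BMN/PAZA and 18.7 in high-dose BMN/PAZA. All 9 were higher in BMN than in Control, 7 of them by at least 2-fold, with a median difference of 1.60. The basal keratin KRT5 had 19.1, 67.3, 2.30, 0 and 2.53 in the same order of libraries, and KRT14, its partner, had 14.1, 62.9, 1.54, 0.511 and 1.59. KRT5 and KRT1, a keratin of the upper epidermis, were listed at 0 in low-dose BMN/PAZA. CDH1 was at 1.57 to 2.08 in the 3 libraries with PAZA, where the keratinocyte sum was between 3.52 and 18.7. In Control it was at 1.83, where that sum was 90.7. EPCAM was at 0.642 in Control, 0 in PAZA, 0.165 in low-dose BMN/PAZA and 1.21 in high-dose BMN/PAZA. The part of keratinocytes in the CDH1 and EPCAM levels was not tested.

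**Figure D2:**
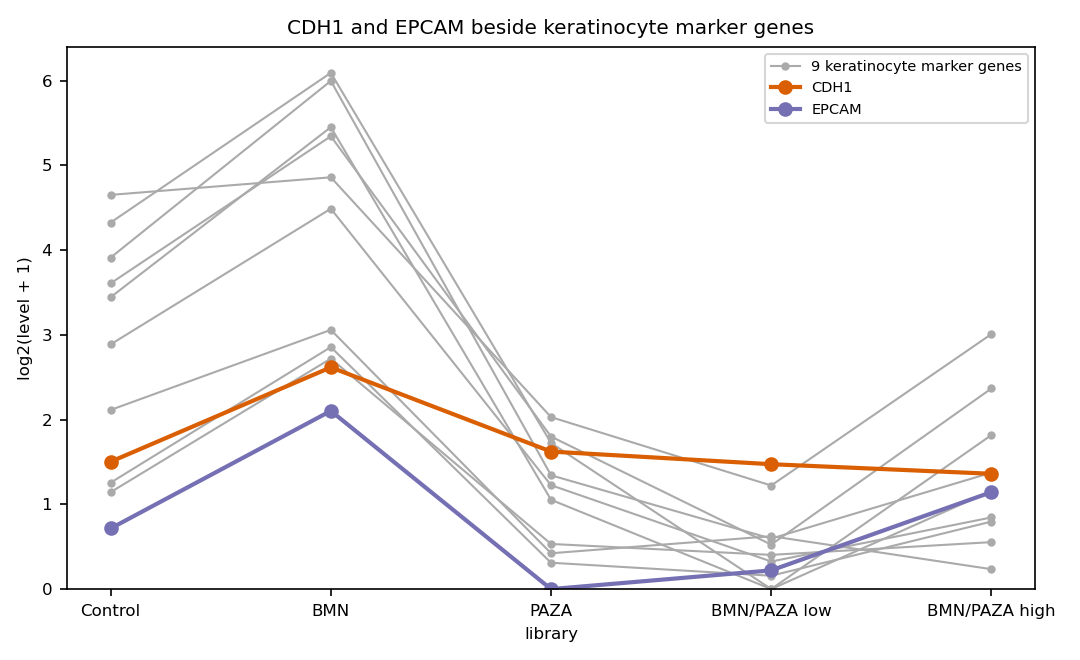
CDH1 and EPCAM (coloured) and the 9 keratinocyte marker genes (grey) on the log2(level + 1) scale in the 5 libraries, with each line joining the values of 1 gene and marking no order in time or dose. Both genes and all 9 markers are highest in BMN. In PAZA and both combinations the markers are lower than in Control. There CDH1 lies near its Control level of 1.83, and EPCAM lies between 0 and 1.21.

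Markers of other tissues varied too. The 9 fibroblast markers summed to 220 in Control, 514 in BMN, 295 in PAZA, 206 in low-dose BMN/PAZA and 224 in high-dose BMN/PAZA. The 7 skeletal muscle markers summed to 12.7, 195, 64.0, 11.3 and 220 in that order, so BMN and high-dose BMN/PAZA stood apart from Control and low-dose BMN/PAZA. The 6 leukocyte markers ranged from 150.7 to 221, the 6 endothelial markers from 27.9 to 47.5 and the 5 adipocyte markers from 45.8 to 114. Of 8 lung epithelium markers only NAPSA, an aspartic protease, was shared, with levels of 2.95, 3.31, 2.79, 1.19 and 5.18. The surfactant genes SFTPC, SFTPB, SFTPA1 and SFTPD, the lung transcription factor gene NKX2-1, SCGB1A1 and FOXJ1 were listed at 0 in both libraries of the table with BMN and low-dose BMN/PAZA, so these lung epithelium markers were not seen there.

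VIM, on chromosome 2 from 13574311 to 13582826, encodes vimentin and had the highest level of the 10 genes. It measured 2415 in Control, 2448 in BMN, 2076 in PAZA, 2470 in low-dose BMN/PAZA and 2272 in high-dose BMN/PAZA. The libraries spanned 0.25 on the log2 scale, and 2.28% of the 11214 symbols with a mean level of 1 or more spanned less. The level of VIM was 477 times that of CDH1 in BMN and between 998 and 1448 times in the other libraries. The limit on comparing levels between genes applies to these ratios. Both combinations lay within 0.09 of Control, and PAZA was the lowest library, at -0.22.

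FN1, on chromosome 1 from 71585473 to 71653280, encodes fibronectin, a matrix protein that the study followed on the surface of its particles. Its level was 1098 in Control, 981 in BMN, 915 in PAZA, 1131 in low-dose BMN/PAZA and 836 in high-dose BMN/PAZA. Low-dose BMN/PAZA and Control were the highest pair and high-dose BMN/PAZA was the lowest library, 0.39 below Control on the log2 scale. The span of 0.44 was larger than that of 15.0% of symbols, so FN1 too varied less than most genes. The fibroblast marker sum was highest in BMN, and the part of fibroblasts in the FN1 level was not tested.

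CDH2, on chromosome 18 from 16588877 to 16809246, encodes N-cadherin and was the mesenchymal gene with the lowest level. It had 1.08 in Control, 0.231 in BMN, 0.544 in PAZA, 0.290 in low-dose BMN/PAZA and 0.284 in high-dose BMN/PAZA. About 19 fragments stood behind the Control level, about 10 behind that of PAZA, and about 5 behind each of the other 3. Control was the highest library, with ratios of Control to the others of 4.68 for BMN (1.66 to 15.8), 3.72 for low-dose BMN/PAZA (1.33 to 12.6) and 3.80 for high-dose BMN/PAZA (1.35 to 12.8). On the log2(level + 1) scale the differences of these 3 libraries from Control were -0.76, -0.69 and -0.70, short of the 2-fold line, because the levels are near or below the added 1. With a pseudocount of 0.1 they were -1.83, -1.60 and -1.62.

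CDH1 and CDH2 together gave a ratio of levels of 1.70 in Control, 22.3 in BMN, 3.82 in PAZA, 6.14 in low-dose BMN/PAZA and 5.52 in high-dose BMN/PAZA. The level of CDH1 was above that of CDH2 in all 5 libraries, under the same limit on comparing levels between genes. In BMN the ratio combines the highest CDH1 and the lowest CDH2 of the series, the latter on about 5 fragments.

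ZEB1, on chromosome 18 from 5591327 to 5775468, encodes a zinc finger repressor of CDH1. Its level was 79.7 in Control, 91.1 in BMN, 60.8 in PAZA, 67.7 in low-dose BMN/PAZA and 35.0 in high-dose BMN/PAZA. The high-dose library stood alone below the rest, on about 743 fragments against about 1720 in Control. It was 2.27-fold below Control (interval 2.09 to 2.48), 2.60-fold below BMN (2.39 to 2.83) and 1.93-fold below low-dose BMN/PAZA (1.77 to 2.12). Of the 10 genes ZEB1 was the 1 gene at least 2-fold lower in high-dose BMN/PAZA than in Control (-1.16), with 0 higher, where 3.2% of all symbols were higher and 4.95% lower. All symbols had a median of -0.17 in that comparison, and relative to it ZEB1 stood at -0.99, just short of 2-fold. With columns scaled by the median of well measured symbols it stood at -0.94.

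ZEB2, on chromosome 2 from 44983512 to 45117442, is the paralog of ZEB1 and is also used by macrophages and other leukocytes. Its level was 66.4 in Control, 84.8 in BMN, 63.6 in PAZA, 51.8 in low-dose BMN/PAZA and 44.2 in high-dose BMN/PAZA. BMN was the highest and high-dose BMN/PAZA the lowest library for both ZEB genes, but PAZA and low-dose BMN/PAZA changed places between them. ZEB2 differed from Control by 0.35 in BMN and by -0.58 in high-dose BMN/PAZA. The ratio of ZEB1 to ZEB2 was 1.20 in Control and 0.793 in high-dose BMN/PAZA. Leukocyte markers summed to 167 in Control, 221 in BMN, 219 in PAZA, 164 in low-dose BMN/PAZA and 150.7 in high-dose BMN/PAZA. PAZA was thus close to BMN in this sum, while its ZEB2 level was below Control. The part of leukocytes in ZEB2 was not tested.

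SNAI1, on chromosome 2 from 167538195 to 167542814, encodes Snail. Its level was 1.92 in Control, 1.14 in BMN, 1.02 in PAZA, 0.538 in low-dose BMN/PAZA and 0.880 in high-dose BMN/PAZA. Every treated library was below Control, with low-dose BMN/PAZA the lowest. About 12, 8, 6, 3 and 5 fragments stood behind these levels. The ratio of Control to low-dose BMN/PAZA was 3.56 with an interval of 1.04 to 21.3, and the intervals of the other 3 treated libraries against Control included 1. On the log2(level + 1) scale the low-dose difference was -0.92. In that comparison 0 of the 10 genes were past 2-fold in either direction, where 3.65% of all symbols were higher and 3.54% lower.

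SNAI2, on chromosome 16 from 14705852 to 14709395, encodes Slug, and its levels were 13.8 in Control, 12.6 in BMN, 13.7 in PAZA, 12.4 in low-dose BMN/PAZA and 10.1 in high-dose BMN/PAZA. Slug was the more abundant of the SNAI pair in every library, by 7.19 times in Control and 23.0 times in low-dose BMN/PAZA. Its span of 0.42 was larger than that of 12.9% of symbols. TWIST1, on chromosome 12 from 33957671 to 33959831, encodes a basic helix-loop-helix factor that is also active in fibroblasts. It had 8.50 in Control, 13.1 in BMN, 8.59 in PAZA, 8.75 in low-dose BMN/PAZA and 8.40 in high-dose BMN/PAZA. BMN stood alone again, at 1.54 times Control (1.10 to 2.23), and the other 4 libraries lay within 8.40 to 8.75. The fibroblast marker sum had the same highest library, at 514, and its part in TWIST1 was not tested.

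**Figure D3:**
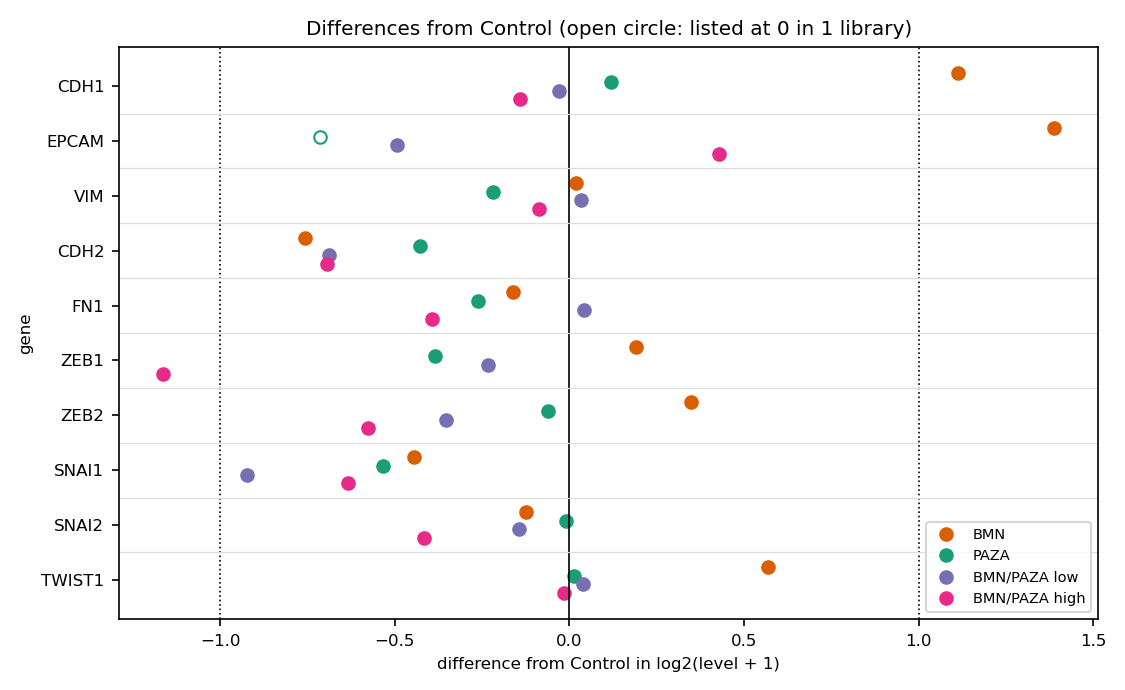
Differences of the 10 genes from Control in log2(level + 1) for the 4 treated libraries, with dotted lines at a 2-fold difference and an open circle where a library is listed at 0. CDH1 and EPCAM in BMN lie right of the upper line at 1.11 and 1.39, ZEB1 in high-dose BMN/PAZA lies left of the lower line at -1.16, and SNAI1 is left of 0 in all 4.

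Several comparisons held no member past 2-fold in either direction. PAZA against Control had 8 of the 10 genes lower and 2 higher, with a median of -0.24 beside -0.07 for all symbols. There 3.47% of all symbols were at least 2-fold higher and 3.53% lower. Low-dose BMN/PAZA against Control, given with SNAI1 above, had 7 lower and 3 higher, with a median of -0.19 beside -0.03 for all symbols. Low-dose BMN/PAZA against PAZA had 5 lower and 5 higher, with a median of -0.05 beside 0.03 for all symbols. There 2.45% of all symbols were at least 2-fold higher and 2.78% lower. In the remaining comparison, low-dose against high-dose BMN/PAZA, 0 members were past 2-fold too, where 3.38% of all symbols were higher and 2.34% lower. There ZEB1 was at 0.93 and EPCAM at -0.92, and relative to the median of all symbols, 0.13, EPCAM stood at -1.05. The 4 comparisons with Control share the same Control library, and the comparisons with BMN the same BMN library, so they are not independent of each other.

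Inside single tables, as deposited and without rescaling, the differences had the same signs for CDH1, EPCAM and ZEB1 against BMN and were smaller. CDH1 differed by -0.85 in low-dose and -0.94 in high-dose BMN/PAZA, short of 2-fold after the added 1, although BMN was 2.57 and 2.90 times these libraries in the deposited values themselves. EPCAM differed by -1.31 in the low dose and ZEB1 by -1.17 in the high dose. The deposited low-dose column in the table with the high dose is 3.26 times that in the table with BMN. The values of all 10 genes kept such constants between tables within 0.5%, whereas 384 of the 13979 shared symbols did not or had a BMN value at 2 times the low-dose value.

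Partner genes were read from 6 lists, which were written with earlier results of these libraries known. Their counts stand beside the shares of all symbols at least 2-fold higher and lower than Control, which were 4.66% and 2.25% in BMN, 3.47% and 3.53% in PAZA, 3.65% and 3.54% in the low dose and 3.2% and 4.95% in the high dose. Of 19 mesenchymal partners, 6 were at least 2-fold higher in BMN than in Control and 0 lower, with a median of 0.46 beside 0.09 for all symbols, of which 4.66% were at least 2-fold higher. The fibroblast markers were higher in BMN as well, all 9 of 9 and 6 of them by at least 2-fold, with a median of 1.10, and their part in the list was not tested. The 6 partners included COL1A1, a fibrillar collagen, with 15.5, 54.7, 18.1, 14.5 and 26.0 in the order Control, BMN, PAZA, low dose and high dose. COL3A1, another fibrillar collagen, had 208, 552, 378, 208 and 220. The calcium-binding protein gene S100A4 had 1517, 1924, 1668, 2318 and 2277, so its highest library was low-dose BMN/PAZA and all treated libraries were above Control. In PAZA, low dose and high dose, 1, 0 and 0 mesenchymal partners were at least 2-fold higher and 0, 1 and 1 lower.

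Of 19 epithelial partners, 1 was at least 2-fold higher and 0 lower in BMN, with a median of 0.37, and the same counts were 1 and 2 in PAZA, 2 and 2 in the low dose and 0 and 2 in the high dose. The 1 of 19 in BMN is near the 4.66% of all symbols. By any amount, 13 of the 19 were higher in BMN than in Control and 6 lower. KRT19 was among the lower, at 27.4 in BMN against 47.1 in Control. Desmoplakin (DSP), the plaque protein of desmosomes, had 8.96 in Control, 40.1 in BMN, 1.31 in PAZA, 0.103 in low-dose BMN/PAZA and 1.36 in high-dose BMN/PAZA, which is the order of the keratinocyte sum. TJP1, a tight junction scaffold, had 165, 219, 82.3, 141 and 99.8. KRT8, the keratin of simple epithelia, was at 115 in Control and BMN and between 135 and 174 in the other libraries, while its partner KRT18 was listed at 0 in Control and was at most 3.49. Values near 0 in these tables need not mean little transcript, since GAPDH, a glycolysis gene that all cells use, was at 1.84 to 4.67 while the actin gene ACTB was at 3340 to 4433.

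Of 8 cadherin-catenin partners, JUP (plakoglobin) had 2.02, 7.64, 2.61, 1.75 and 4.29, with BMN highest as for CDH1. The catenin genes CTNNA1 and CTNNB1 encode proteins that link cadherins to actin. CTNNA1 had 375, 383, 234, 210 and 227, with BMN close to Control, and CTNNB1 had 215, 201, 165, 124 and 116, with Control highest. AFDN, an adherens junction adaptor, had 147, 152, 65.2, 67.8 and 59.9, and its BMN value was 2 times the low-dose value in the table of both, as it was for 148 shared symbols. The list median was 0.06 in BMN, -0.38 in PAZA, -0.43 in the low dose and -0.34 in the high dose. In BMN, 2 of the 8, JUP and the endothelial cadherin CDH5, were at least 2-fold higher than Control and 0 lower, where 4.66% of all symbols were higher. In each library with PAZA, 1 of the 8 was at least 2-fold lower than Control and 0 higher, where 3.53% to 4.95% of all symbols were lower. It was AFDN in all 3, the 1 gene of this list with a BMN value at 2 times the low-dose value.

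In a list of 9 other transcription factors of the transition, 1 was past 2-fold against Control in BMN, where 4.66% of all symbols were higher and 2.25% lower, and 0 were in the other libraries. This was PRRX1, a homeobox factor of mesenchyme, with 7.49, 20.6, 14.5, 8.19 and 8.16. TWIST2 had 5.94, 4.41, 3.01, 2.72 and 3.02 and was lower than Control in all treated libraries. HMGA2, a chromatin protein of embryonic and tumor cells, had 58.7, 76.1, 78.6, 67.9 and 52.0, and TCF4 had 40.5, 55.2, 44.9, 24.4 and 29.7. In the list of 18 TGF-beta ligands, receptors and SMADs, 3 were at least 2-fold higher in BMN, 1 in PAZA, 3 in the low dose and 1 in the high dose, with 0 lower in each. Of all symbols, 4.66%, 3.47%, 3.65% and 3.2% were higher in that order, and 1 of 18 in PAZA or the high dose is near that share. BMP4, a ligand of the family, was listed at 0 in Control and had 2.48, 10.8, 1.96 and 3.50 in BMN, PAZA, low dose and high dose. It is part of the count in every treated library, through the same Control value, and is the only gene counted in PAZA and in the high dose. TGFB2 had 0.153, 0.126, 1.27, 2.77 and 0.155, with the low dose highest. SMAD2, a signal transducer, had 59.0, 51.1, 44.3, 46.6 and 45.2, and LTBP1, which stores the ligand in the matrix, 81.8, 85.4, 64.9, 72.9 and 70.2.

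Of 14 fibronectin receptors and assembly genes, 1 was at least 2-fold lower in BMN and 1 in the high dose, with 0 higher in any library. Of all symbols, 2.25% were lower in BMN and 4.95% in the high dose, so a single gene of 14 is no result about the list. ITGA5, the integrin chain that binds fibronectin, on chromosome 15 from 103344286 to 103366791, had 6.88 in Control, 5.00 in BMN, 3.80 in PAZA, 7.81 in low-dose BMN/PAZA and 5.11 in high-dose BMN/PAZA. Low-dose BMN/PAZA and Control were the highest libraries for ITGA5 as for FN1. Its partner ITGB1 had 931, 1053, 929.9, 1060.1 and 789. PTK2, the focal adhesion kinase, had 125, 124, 76.0, 108 and 87.7, FBN1 (fibrillin) 21.9, 39.8, 23.7, 25.2 and 20.5, and ITGA8 1.63, 0.259, 2.65, 0.469 and 0.108.

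**Figure D4:**
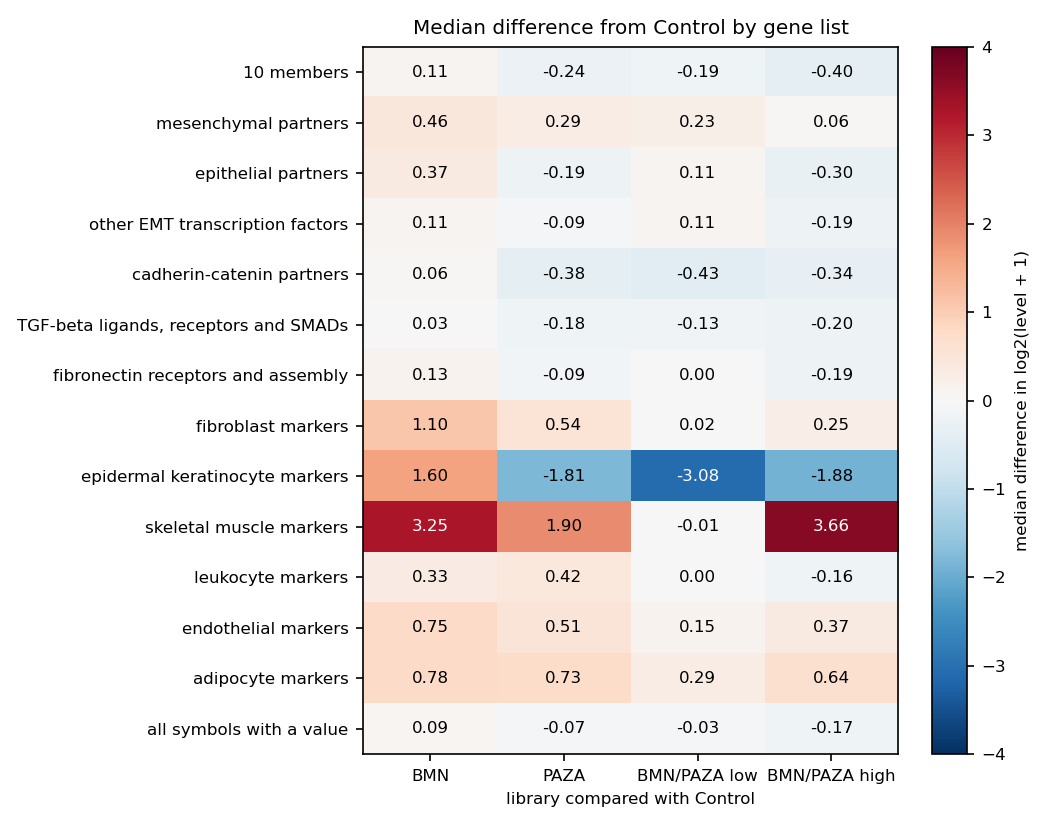
Median difference from Control in log2(level + 1) of the 10 genes, of the 6 partner lists and of 6 marker lists, with the median over all symbols in the last row. The partner lists lie between -0.43 and 0.46, whereas the keratinocyte markers range from -3.08 to 1.60 and the skeletal muscle markers from -0.01 to 3.66.

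The genes with the most similar profile to each member were sought among 11214 symbols with a mean level of 1 or more, by the root mean square difference of centred log2 levels over the 5 libraries. Nearest to ZEB1 were CHERP (0.068) and TBCD (0.090), and nearest to ZEB2 were HAUS6 (0.029) and NASP (0.037). VIM lay nearest to GGTA1 (0.015) and TRIM5 (0.018), and FN1 to ATRIP (0.025) and COMMD8 (0.028). For CDH1 they were ALYREF (0.031) and RNMT (0.034), both with a BMN value at 2 times the low-dose value in the table of both. Among symbols without such values, a choice made after seeing the data, the nearest to CDH1 were MMP3 (0.057) and BGN (0.072). EPCAM lay nearest to LIN37 (0.13) and AHCYL2 (0.19), SNAI1 to RFX5 (0.040) and TGFB1I1 (0.060), SNAI2 to MTERF4 (0.010) and ZSCAN12 (0.028), and TWIST1 to MCM9 (0.027) and ZBED4 (0.029). The ZEB pair differed from each other by 0.25, and ZEB2 ranked 480 in likeness to ZEB1. CDH2 was left out because its mean level was below 1. With 5 libraries and so many symbols to search, a small distance is by itself no sign of a relation, and no expected distance was computed. The profiles of EPCAM and SNAI1 also rest on 30 or fewer and 12 or fewer fragments per library.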

How the data were processed

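RNA-seq of 5 LLC groups, with 1 library each, was analysed from 5 tables of 2 groups each that the authors deposited. The submitters' processing notes name HISAT2, StringTie and GRCm38, and versions are not given in the sources used here. No unit is named in the tables, and the deposited values were taken as FPKM, which StringTie writes. Control and PAZA came from the table of both, BMN and high-dose BMN/PAZA from theirs, and low-dose BMN/PAZA from its table with the high dose. Symbols were put in capitals, the row with the highest mean was kept for a repeated symbol, and up to 24 symbols turned into numbers in a table were left out. Each column was scaled to a sum of 1000000 over the 13979 shared symbols. Differences are on log2(level + 1), and 2-fold is a difference of 1. No p-value was computed, since no group has a replicate.

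The 10 genes, the 6 partner lists and the 7 marker lists were chosen with earlier results of these data known. Named from each list were the 2 genes with the highest mean, the 2 with the largest difference from Control, ITGA5, and markers whose values bear on a member. For 13 lists, counts past 2-fold and medians were computed in all 8 comparisons. The worth of 1 fragment was the most frequent ratio among symbols with a level under 2 in 2 libraries, and, for the low dose, the most frequent product of FPKM and length among genes with 1 transcript of at least 1000 bases in GENCODE vM21. Fragments behind a member used the mean length of its transcripts that carry a RefSeq mRNA. Effective lengths were not used, so these numbers are approximate. The scaling and the steps were tested on simulated data. Promoters and positions are from RefSeq, GRCm38.p6. Scripts ran under Python 3.11.15 with pandas 2.3.3, numpy 2.4.6 and, for plots, matplotlib 3.10.9.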

Additional observations from a re-analysis of the deposited data

How the results depend on the processing

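No paired analysis was possible because each group has 1 library, and no replicate could be left out. Without a replicate spread, a difference was counted as kept where it moved by less than 0.5 on the log2 scale. Of 672 recomputed differences of the 10 genes, 661 were kept, 11 moved and 0 changed sign past 2-fold, and the moved ones were EPCAM, CDH2 and SNAI1, all at low levels. Several of the settings could hardly move a member. Taking libraries from other tables, using the symbols of all tables, summing repeated rows or filtering on level leaves the differences of the 10 genes nearly unchanged. The number kept is raised by these settings. Of 884 list medians, 859 were kept, 25 moved and 0 changed sign past 2-fold. The median of epithelial partners in high-dose BMN/PAZA against BMN was -1.002 with a pseudocount of 0.1. Counts of genes past 2-fold were within 1.5 times in 55 of 76 cases. With the median scaling and with the sum without the 100 highest symbols, the count was 0 in high dose against Control, 1 in low dose against BMN and 1 in low against high dose. A pseudocount of 0.1 gave 1 in PAZA against Control, 3 in low dose against Control, 3 in high dose against Control, 1 in low dose against PAZA and 1 in low against high dose. A 1.5-fold line gave 1 in PAZA against Control, 2 in low dose against Control, 3 in high dose against Control, 2 in low against high dose and 4 in high dose against BMN. In settings chosen after seeing the data, counts relative to the median of all symbols were 0 in high dose against Control, 1 in low against high dose and 1 in high dose against BMN, and unscaled values inside the table of both libraries gave 1 in low dose against BMN and 1 in high dose against BMN. For low against high dose no unscaled count is given, since the low-dose column of that table is 3.26 times that of another table. Relative to the median of that table, ZEB1 was at 1.15, EPCAM at -1.82, CDH2 at -1.03 and SNAI1 at -1.02, all past 2-fold, with 1 added to columns of unequal scale. The ZEB1 call in high dose against Control thus depends on the scaling, while in high dose against BMN it held relative to the median (-1.08) and inside the table (-1.17). Inside the tables CDH1 was at -0.85 in the low and -0.94 in the high dose against BMN on the scale with 1 added, with ratios of 2.57 and 2.90 in the deposited values, and relative to the median it was at -1.01 and -0.99. CDH2 and SNAI1 passed 2-fold against Control only with a pseudocount of 0.1. Depth limits EPCAM, CDH2 and SNAI1, which rest on 30 or fewer fragments.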
